A study of Mus musculus with 6 samples.

Results

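The mouse RNA of livers that carried an orthotopic human tumor was examined in the 3 libraries labelled siControl, of 6 libraries in the series. All 56884 genes of the mouse count table were taken from these libraries, and no other library was used. The libraries came from liver tissue of male BALB/c (nu/nu) mice, labelled WT and aged 6 weeks, an athymic strain that lacks most mature T cells. Cells of the human HCC line QGY-7703 had been implanted in the liver in Matrigel, a basement membrane extract. After 1 week an AAV8 vector with the control siRNA was given through the tail vein, and tissue was taken 3 weeks later. Expression of the siRNA was under the TBG promoter, which works in hepatocytes and not in the stromal or immune cells described here. The siControl replicates are numbered 1 to 3, and nothing in the labels ties a number to a litter or a day.

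Host cells inside a liver tumor are a mixture. Fibroblasts and pericytes lay down collagen and other matrix, endothelial cells line the vessels, and macrophages and neutrophils enter from the blood or, as Kupffer cells, live in the liver. Hepatocytes at the tumor border make most plasma proteins, and in inflammation they raise a set of secreted acute-phase proteins, under the control of cytokines such as interleukin 6 and interleukin 1, while many of their metabolic enzymes fall.

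The mouse tables held 703317, 213022 and 913584 counts in replicates 1, 2 and 3, beside 35811453, 27159173 and 53138655 human counts in the same libraries. Mouse counts were therefore 1.93%, 0.778% and 1.69% of all gene counts. Levels are given as TPM, that is counts divided by gene length and scaled to the same total in each library within the mouse table, so that genes can be compared with each other. For a gene of 2 kb, 3 counts were worth 4.21, 13.5 and 3.27 TPM in replicates 1 to 3, and lower levels cannot be told from 0, with counting error alone considered. At least 10 counts in each library were found for 3833 genes, of which 3783 were protein-coding. A TPM of at least 10, with at least 3 counts, was reached in all 3 libraries by 5975 genes, a TPM of at least 100 by 970 genes and a TPM of at least 1000 by 120 genes. Pairs of libraries differed by more than sampling noise, with a chi-square per gene of 5.14 to 10.3, and each was counted as a separate sample. Replicate 1 stood apart, with its higher hepatocyte and lower neutrophil RNA. Values are therefore given for each library.

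By their mean over the 3 libraries, the highest host transcripts outside the mitochondrial genome and the ribosome were secreted proteins of the liver, Hp, Trf, Apoe and Hpx. Here and below, genes that lead a list or follow in it are ordered by mean TPM. Haptoglobin (Hp, ENSMUSG00000031722, GRCm39 chromosome 8, 110301760 to 110305804), which binds free hemoglobin, had the highest mean of these genes, 9453 TPM, with 14242, 6733 and 7385 TPM in replicates 1, 2 and 3. Transferrin (Trf), the iron carrier of plasma, followed with 11869, 6041 and 7448 TPM. Apolipoprotein E (Apoe), made by hepatocytes and macrophages, had 15541, 2726 and 5520 TPM. Hemopexin (Hpx), which binds free heme, had 11252, 6161 and 5422 TPM. Each of these genes was highest in replicate 1. Hp was the leading gene in no single library, as Apoe led in replicate 1, the neutrophil gene S100a9 with 9045 TPM in replicate 2 and the elongation factor Eef1a1 with 7790 TPM in replicate 3. Among the 30 highest protein-coding genes stood further liver products, namely Lcn2, Saa1, Saa2, Apoa1, Orm1 and Alb, genes of all cells such as Eef1a1, Actb, Tpt1 and Gapdh, the ferritin chains Fth1 and Ftl1, the myeloid genes S100a9 and C1qa, and the matrix genes Sparc, Spp1, Col1a2 and Col1a1. These 30 genes held 15.9%, 12.5% and 12.7% of TPM. The distribution was broad, with 190 genes needed to reach 50% of the mean TPM. By its leading genes the host RNA was thus a mixture of liver, myeloid and matrix transcripts, and the name stroma covers only a part of it.

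**Figure D1:**
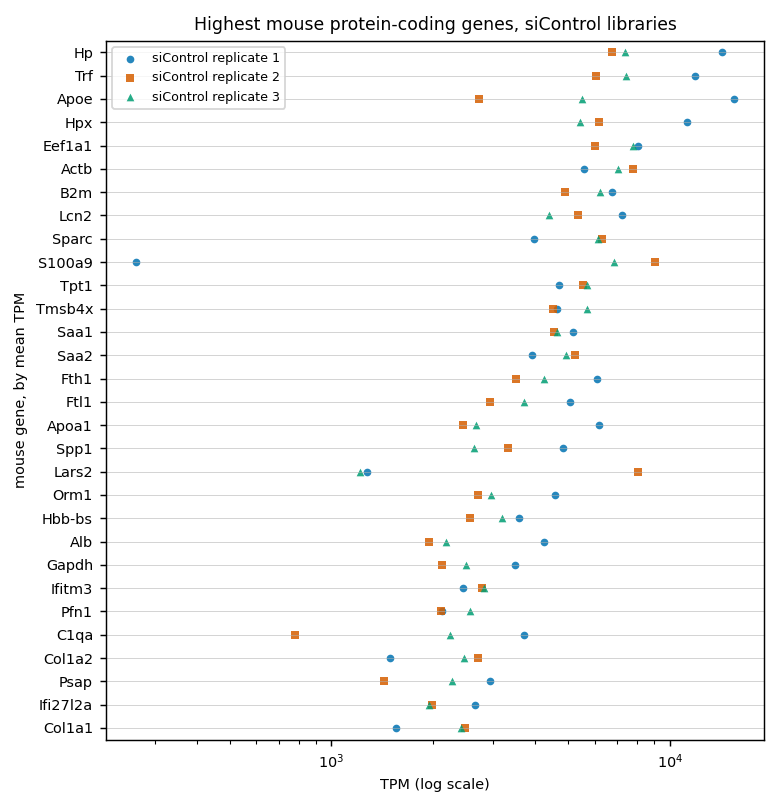
TPM (log scale) of the 30 mouse protein-coding genes with the highest mean, with genes of the mitochondrial genome and of ribosomal proteins left out; each point is one siControl library. Hp, Trf, Apoe and Hpx were highest in replicate 1, S100a9 was at 264 TPM in replicate 1 against 9045 and 6828 in replicates 2 and 3, and Lars2 was at 8053 TPM in replicate 2 alone.

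The markers given for the host stroma were all present. Col1a1 (ENSMUSG00000001506, chromosome 11, 94827050 to 94843868), a chain of type I collagen, had 1551, 2483 and 2410 TPM. Col3a1 (chromosome 1, 45350698 to 45388866), the chain of type III collagen, had 1628, 1804 and 2868 TPM. Esm1 (chromosome 13, 113346193 to 113354632), a proteoglycan secreted by sprouting endothelial tip cells, had 189, 228 and 190.5 TPM from 141, 53 and 183 counts. Both collagens were lowest in replicate 1, while Esm1 varied little.

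Hepatocyte markers had the highest summed TPM of the 25 cell type lists, with 34596, 15112 and 16009 TPM, a mean of 21906 ± 10999 (SD, n = 3) and of 15561 without replicate 1. On the CPM scale, which does not divide by gene length, fibroblast markers stood above them, with means of 20164 against 18326. Of the 14 markers, 13 reached a TPM of 10 in every library, and 10 of the 10 with at least 10 counts in every library were highest in replicate 1. Over all genes with such counts, 30.6% were highest in replicate 1. Albumin (Alb), the main plasma protein, had 4255, 1940 and 2181 TPM, below haptoglobin in every library. The ratio of Hp to Alb was 3.35, 3.47 and 3.39, and that of the fibrinogen chains Fga and Fgb was 0.974, 1.03 and 1.06. The ratio of Trf to Alb was 2.79, 3.11 and 3.41 and that of Hpx to Alb was 2.64, 3.18 and 2.49. These ratios differed by 1.04-fold for Hp, 1.09-fold for the fibrinogen chains, 1.22-fold for Trf and 1.28-fold for Hpx, while Alb itself differed by 2.19-fold. In bulk RNA, fewer cells of a type and less RNA per cell cannot be told apart, and this holds for each list described here.

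A list of 24 acute-phase proteins, drawn up after these levels had been seen, summed to 63863, 40571 and 40305 TPM, and all 24 reached a TPM of 10 in every library. Serum amyloid A1 and A2 (Saa1 and Saa2), lipid-binding proteins that rise steeply in inflammation, lay among the highest genes. Saa1 had 5166, 4542 and 4659 TPM, and Saa2 had 3908, 5266 and 4927 TPM. Unlike albumin, Saa2 was lowest in replicate 1, and Saa1 had the smallest coefficient of variation of the 30 highest protein-coding genes, 0.0693. The coding genes are near-identical copies, and reads that fit both were dropped, so the split between them is uncertain. Lipocalin 2 (Lcn2), which withholds iron from bacteria, had 7224, 5357 and 4408 TPM. Orosomucoid 1 (Orm1), a plasma carrier protein, had 4571, 2721 and 2957 TPM. Saa3, which macrophages and other cells outside the hepatocyte also make, had 780.5, 1466 and 1791 TPM and was lowest in replicate 1. Hepcidin (Hamp), the hormone that limits iron uptake, had 2857, 747 and 554 TPM and was highest there. Complement C3 had 2141, 921 and 1144 TPM.

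The sequences before the start sites of Saa1, Saa2, Lcn2 and Hpx are shown because these genes are among the 5 highest of the acute-phase list (Hp, the highest, is not shown), and those of Col3a1 and Esm1 because they mark the stroma. They are RefSeq promoters, read from a GRCm38.p6 table and placed on GRCm39 by exact match, 5′ to 3′ on the strand of the gene. Bases that lie inside the annotated gene are left out. Capitals mark matches, on either strand, to TTGCNNAA (C/EBP), CCAAT or TATAAA.
Saa1, chr7:46392405-46392654, minus strand: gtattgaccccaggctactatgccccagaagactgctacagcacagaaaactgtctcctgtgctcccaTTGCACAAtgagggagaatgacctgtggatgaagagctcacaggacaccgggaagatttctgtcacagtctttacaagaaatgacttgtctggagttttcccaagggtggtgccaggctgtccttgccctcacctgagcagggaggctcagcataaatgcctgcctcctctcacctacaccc
Saa2, chr7:46401007-46401213, plus strand: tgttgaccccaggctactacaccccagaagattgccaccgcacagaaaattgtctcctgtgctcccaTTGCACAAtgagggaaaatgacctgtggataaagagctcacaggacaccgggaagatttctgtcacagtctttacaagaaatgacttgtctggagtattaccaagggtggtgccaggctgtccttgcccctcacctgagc
Lcn2, chr2:32277810-32278001, minus strand: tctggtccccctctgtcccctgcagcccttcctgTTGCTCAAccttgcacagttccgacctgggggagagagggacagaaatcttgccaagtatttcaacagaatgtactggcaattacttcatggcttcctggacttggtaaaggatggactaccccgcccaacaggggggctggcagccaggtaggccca
Hpx, chr7:105249345-105249573, minus strand: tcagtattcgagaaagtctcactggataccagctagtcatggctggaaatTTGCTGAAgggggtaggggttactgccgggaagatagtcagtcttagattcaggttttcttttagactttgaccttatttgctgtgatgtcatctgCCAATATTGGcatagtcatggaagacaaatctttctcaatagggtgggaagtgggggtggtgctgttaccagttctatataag
Col3a1, chr1:45350448-45350697, plus strand: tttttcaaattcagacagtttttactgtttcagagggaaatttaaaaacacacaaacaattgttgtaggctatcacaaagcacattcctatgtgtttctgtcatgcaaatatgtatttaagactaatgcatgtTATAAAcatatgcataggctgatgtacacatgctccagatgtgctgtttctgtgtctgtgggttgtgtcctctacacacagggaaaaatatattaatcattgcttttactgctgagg
Esm1, chr13:113345943-113346192, plus strand: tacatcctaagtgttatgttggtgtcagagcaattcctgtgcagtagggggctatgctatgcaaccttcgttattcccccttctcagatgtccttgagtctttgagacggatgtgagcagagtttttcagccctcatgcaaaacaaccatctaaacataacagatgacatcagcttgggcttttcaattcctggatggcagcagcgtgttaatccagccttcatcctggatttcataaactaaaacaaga

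The Saa1 and Saa2 windows of 250 bases were identical at 238 aligned positions, with 11 mismatches and 2 gaps. TTGCNNAA, a short form of the site of the C/EBP factors, was found in the Saa1, Saa2, Lcn2 and Hpx windows and in 9.56% of the 32851 RefSeq promoter windows of the same length. CCAAT was found in 33.8% of all windows and TATAAA in 12.4%. GGG and TTCC parted by any 3 bases, an NF-kB form, and TTCNNNGAA, a STAT form, are held by 4.65% and 7.02% of all windows, and neither was found in these 6. A match describes the letters alone. The 6 genes were chosen for their level or as markers.

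The listed genes of hepatocyte metabolism lay for the most part below the listed acute-phase genes, with a median over the members' mean TPM of 102 against 1182. A list of 24 such genes, also drawn up after levels had been seen, summed to 8409, 1563 and 2451 TPM, and 18 of them reached a TPM of 10 in every library. Fabp1, the fatty acid carrier of hepatocytes, had 1687, 212 and 631 TPM. Cyp2e1, a drug-metabolizing enzyme of the cells around the central vein, had 642, 44.1 and 106 TPM, and its ratio to Alb was 0.151, 0.0227 and 0.0484. The 11 enzymes with at least 10 counts in every library were all highest in replicate 1, with a median 5.75-fold range against a median of 1.52-fold over all 3833 such genes. For the 23 acute-phase genes with such counts the median range was 1.90-fold, and 20 of them were highest in replicate 1, against the same 30.6%. The acute-phase sum was 7.59, 26.0 and 16.4 times the metabolism sum in replicates 1, 2 and 3. As both lists were drawn up after levels had been seen, these comparisons depend on the genes chosen.

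The major urinary proteins varied more widely still. These proteins, lipocalins that male mice secrete from the liver into urine, summed to 2704, 47.3 and 130 TPM. Mup20 had 603, 4 and 5 counts and Mup3 had 323, 1 and 51. Mup17 and Mup9 had no count, although near-identical copies in this family limit how reads can be placed. Cyp7a1, which starts bile acid synthesis, had 11, 0 and 0 counts, and Cyp2c29 had 1, 0 and 1. Hepatocyte genes were therefore present in every library, and replicate 1 held the most of them.

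**Figure D2:**
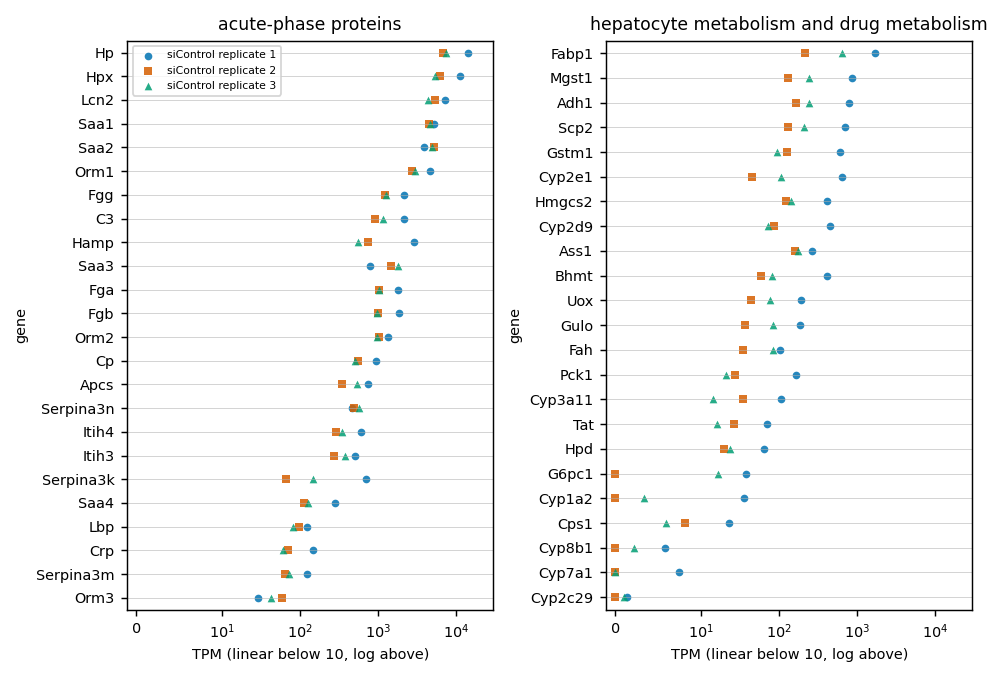
TPM (linear below 10, log scale above) of 24 acute-phase protein genes and 23 of 24 genes of hepatocyte metabolism, each ordered by mean, with a point for each siControl library. Most genes of both lists were highest in replicate 1, with a median range of 1.90-fold for acute-phase and 5.75-fold for metabolic genes that had 10 counts or more in each library.

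After hepatocytes, the largest summed levels by mean TPM were those of tumor macrophages, macrophages, fibroblasts, neutrophils and red cells. Tumor macrophage markers summed to 29208, 9544 and 12834 TPM, of which Apoe, Spp1 and Ctsd made up 77.9%. Apoe, which hepatocytes also make, had a mean of 7929 TPM, and by mean the other members together lay below the macrophage list, though not in replicate 2. Macrophage markers summed to 15645, 6313 and 10366 TPM, fibroblast markers to 5766, 8511 and 9771 TPM, neutrophil markers to 428, 12538 and 9855 TPM and erythroid markers to 6600, 5599 and 6481 TPM. Endothelial markers summed to 840, 1326 and 1340 TPM. The means were 17195 ± 10532 TPM (SD, n = 3) for tumor macrophage, 10775 ± 4679 for macrophage, 8016 ± 2048 for fibroblast, 7607 ± 6360 for neutrophil, 6227 ± 547 for erythroid and 1169 ± 284 for endothelial markers. Sums of lists depend on which genes are listed and are not cell shares. In the neutrophil sum, S100a9, S100a8 and Retnlg made up 96.6%. Their order differed by library and scale, with neutrophil markers the next after hepatocytes in replicate 2 and fibroblast markers the highest on the CPM scale. Hepatocyte markers were 6.00, 1.78 and 1.64 times the fibroblast markers in TPM. The fibroblast sum was 6.86, 6.42 and 7.29 times the endothelial sum, a nearly steady ratio.

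**Figure D3:**
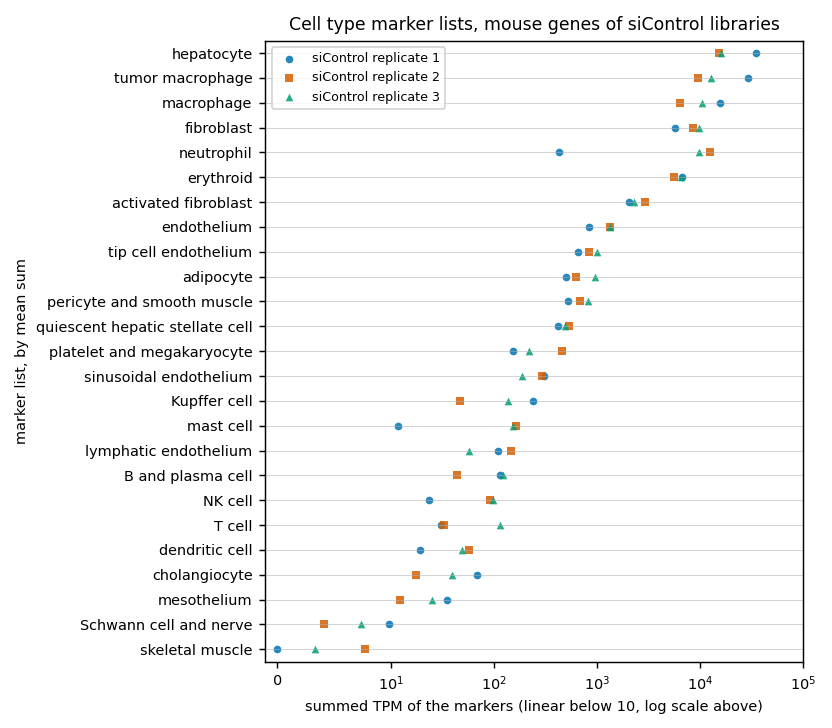
Summed TPM (linear below 10, log scale above) of the mouse genes of 25 cell type marker lists, ordered by mean, with a point for each siControl library. Hepatocyte, macrophage and fibroblast lists lay at 5766 TPM or above in every library, the neutrophil list was at 428 TPM in replicate 1 and at 12538 and 9855 TPM in the others, and the T cell list was at 30.7, 32.8 and 114 TPM.

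Fibrillar collagen made up most of the fibroblast marker sum. The 44 collagen genes took 0.610%, 0.902% and 0.996% of TPM (mean 0.836% ± 0.202, SD, n = 3), and 1.80%, 2.75% and 2.91% of counts, as their transcripts are long. Col1a2, the partner chain of Col1a1, had 1486, 2704 and 2472 TPM, and the ratio of Col1a1 to Col1a2 was 1.04, 0.918 and 0.975. Col1a2, Col1a1 and Col3a1 made up 80.7% of the fibroblast sum. Decorin (Dcn), a proteoglycan that binds collagen fibrils, had 791, 1106 and 1545 TPM. Of the 12 fibroblast markers 8 reached a TPM of 10 in every library. None of the 8 with at least 10 counts was highest in replicate 1, against 30.6% of all such genes. Pdgfra, a receptor of fibroblasts, was lower with 12.8, 25.7 and 25.9 TPM, and Fap, a surface protease of activated fibroblasts, had 2, 1 and 5 counts. Genes named without belonging to the leading 3 of a list, here and below, were chosen after their values had been seen. Those named by another rule, given with the processing, are exempt.

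Other collagens were ordered by type. The basement membrane chains Col4a1 and Col4a2 had 430.2, 733 and 644 TPM and 232, 426 and 367 TPM, with a ratio of 1.85, 1.72 and 1.75. Col15a1, also of basement membranes, had 82.0, 118 and 184 TPM. The beaded-filament chains Col6a1 and Col6a2 had 97.3, 123 and 145 TPM and 66.9, 43.5 and 93.0 TPM. Col8a1, of vessel walls, had 54.4, 67.0 and 76.9 TPM. The cartilage chain Col2a1, the growth plate chain Col10a1, and Col17a1 and Col23a1 had no count in any library.

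Among 29 matrix glycoproteins and proteoglycans, summed at 16975, 18146 and 18288 TPM, 24 reached a TPM of 10 in every library. The collagen-binding protein Sparc had the highest mean, with 3977, 6305 and 6121 TPM. Spp1 (osteopontin), made by macrophages and other cells, had 4822, 3324 and 2645 TPM, was highest in replicate 1 and stood above Sparc there. Igfbp7, of vessel walls, had 1901, 2124 and 2327 TPM. Biglycan (Bgn), a small proteoglycan of the matrix, had 1527, 1404 and 1963 TPM. The sum of these matrix genes differed by 1.08-fold over the libraries, while its members moved in different directions. For the 23 members that had 10 counts or more in each library, the median range was 1.69-fold against 1.52-fold over all genes with such counts. In replicate 1, 14 of them were lowest and 3 highest, against 43.6% and 30.6% of all such genes.

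Enzymes that fold and cross-link collagen were broadly present, 18 of 20 at a TPM of at least 10 in every library. P4hb, a subunit of the prolyl hydroxylase and a general folding enzyme, had 1126, 683 and 801 TPM, the collagen chaperone Serpinh1 had 596, 826 and 984 TPM and the transglutaminase Tgm2 had 323, 170.4 and 339 TPM. Lysyl oxidase (Lox), which starts collagen cross-links, had 184, 139.6 and 201 TPM. Of 15 matrix metalloproteinases, 5 reached a TPM of 10 in every library. The membrane-bound Mmp14, which cleaves fibrillar collagen, had 193, 362 and 298 TPM, Mmp23 had 41.1, 50.3 and 63.9 TPM and the macrophage elastase Mmp12 had 33.9, 11.3 and 81.1 TPM. The metalloproteinase inhibitor Timp1 stood above them with 1841, 1248 and 2463 TPM, at 9.52, 3.45 and 8.25 times Mmp14. The cysteine protease inhibitor Cst3 had 2401, 1236 and 1424 TPM and the complement inhibitor Serping1 had 1023, 560 and 1049 TPM, while Timp4 had no count.

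Markers of activated fibroblasts summed to 2022, 2944 and 2268 TPM, with 10 of 13 at a TPM of at least 10 in every library. Smooth muscle actin (Acta2), the contractile protein of myofibroblasts, had 638, 1213 and 726 TPM. Ccn2 (connective tissue growth factor) had 334, 552 and 320.2 TPM and periostin (Postn), a matrix protein of activated fibroblasts, had 248, 430.1 and 319 TPM. Lrrc15, a marker of collagen-rich tumor fibroblasts, had no count. Tagln, which myofibroblasts share with smooth muscle, had only 3, 1 and 3 counts, but 60.9% of its exon bases are shared with other genes of the table, where counting may drop reads, so its level cannot be read here. These genes were highest in replicate 2 for 5 of the 9 with at least 10 counts, against 34.0% of all such genes.

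Pericyte and smooth muscle markers summed to 516, 689 and 817 TPM. Ndufa4l2, a mitochondrial protein of pericytes and of hypoxic cells, had 123, 164 and 252 TPM, the adhesion molecule Mcam had 75.2, 115 and 125 TPM and desmin (Des) had 80.7, 137 and 95.9 TPM. Higd1b had no count. Pdgfrb, the receptor through which PDGF acts on mural cells, had 76, 32 and 201 counts. Of the markers of quiescent hepatic stellate cells, the vitamin A storing cells of the liver, 2 of 8 reached a TPM of 10 in every library, and the matrix protein Ecm1 had 259, 308 and 257 TPM. Colec11, a lectin, had 5, 2 and 11 counts. Lrat, the enzyme that stores vitamin A, had 5, 0 and 14 counts and Reln had 23, 5 and 42.

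Endothelial markers were present as a set, 11 of 12 at a TPM of at least 10 in every library, and all 10 with at least 10 counts were lowest in replicate 1, against 43.6% of all such genes. Plvap, which forms the diaphragms of fenestrated endothelium, had 264, 426 and 403 TPM. Endoglin (Eng), a TGF-beta co-receptor, had 149, 177 and 181 TPM, and the junction protein Esam had 69.3, 145 and 144 TPM. Pecam1, the general marker, had 63.9, 102 and 112 TPM.

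All 12 markers of tip cells, the endothelial cells at the front of a vessel sprout, reached a TPM of 10 in every library, and their sum was 651, 832 and 994 TPM. Esm1 was the highest, at 2.96, 2.22 and 1.69 times Pecam1. The chemokine receptor Cxcr4 had 104, 64.9 and 162 TPM and the potassium channel subunit Kcne3 had 62.6, 58.2 and 133 TPM. Both were lowest in replicate 2, unlike the endothelial markers with at least 10 counts, and which cells made them was not tested. Apln, a peptide of sprouting vessels, had 42.8, 77.3 and 100.5 TPM.

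Genes of the liver sinusoid were fewer, as 2 of 10 reached a TPM of 10 in every library and the sum was 305, 292 and 187 TPM. Fcgr2b, which clears immune complexes and is also made by macrophages, had 159, 156 and 107 TPM, and the hyaluronan receptor Lyve1 had 64.1, 93.4 and 33.9 TPM. Gpr182 had 26, 6 and 9 counts. The sinusoidal lectin Clec4g had 8, 0 and 0 counts. The tip cell sum was 2.13, 2.85 and 5.32 times the sinusoidal sum. The lymphatic list was led by Lyve1, with Pdpn at 21, 8 and 9 counts and Prox1 at 20, 9 and 16, while Mmrn1 and Ccl21a had no count.

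All 14 macrophage markers had at least 10 counts in every library. The complement genes C1qa, C1qb and C1qc, made chiefly by macrophages, had 3711, 779.8 and 2248 TPM, 3098, 547 and 1705 TPM and 2295, 539 and 1161 TPM. Lysozyme 2 (Lyz2) had 2551, 1636 and 2141 TPM. The C1q genes and Lyz2 were lowest in replicate 2. Tyrobp, a signal adaptor of myeloid cells, moved less, with 1265, 1310 and 1084 TPM, and Csf1r, the receptor macrophages need to survive, had 158, 97.8 and 149 TPM.

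Kupffer cell markers were sparse and summed to 239, 46.5 and 136 TPM. Clec4f, a defining marker of mouse Kupffer cells, had 55, 1 and 24 counts, Cd5l had 65, 4 and 47, Nr1h3 had 39, 3 and 39, Timd4 had 1, 0 and 3 and Cd163 had 0 in every library. Genes of tumor macrophages, such as Trem2, a lipid receptor, reached 504, 173 and 256 TPM, and Gpnmb, a lysosomal glycoprotein, had 227, 9 and 92 counts. Arg1, an arginine-degrading enzyme shared with hepatocytes, had 215, 256 and 241 TPM. The tumor macrophage list was led by Apoe, Spp1 and the cathepsin Ctsd, of which hepatocytes also make Apoe. Its sum was 122, 205 and 94.5 times the Kupffer sum.

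Lysosomal genes stood in the same order, 14 of the 15 with at least 10 counts highest in replicate 1 and all 15 lowest in replicate 2, against 30.6% and 38.8% of all such genes. Prosaposin (Psap) had 2944, 1435 and 2280 TPM, Ctsd had 3345, 894 and 1342 TPM and Ctss, the cathepsin of antigen-presenting cells, had 2282, 1095 and 1826 TPM. Ctsd shares 31.5% of its exon bases with other genes. The ferritin chains Fth1 and Ftl1, which store iron, had 6112, 3505 and 4259 TPM and 5058, 2951 and 3713 TPM. Ftl1 shares 47.9% of its exon bases with other genes and Fth1 13.0%, so their levels are uncertain. These lysosomal, C1q and ferritin genes were thus lowest in replicate 2 together.

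Neutrophil genes differed widely between the libraries, with a sum that spanned 29.3-fold. S100a9, S100a8 and Retnlg made up 96.6% of the sum. Of the 12 markers, 4 reached a TPM of 10 and 3 had at least 10 counts in every library. S100a9 and S100a8, the subunits of calprotectin, had 264, 9045 and 6828 TPM and 104, 2800 and 2412 TPM in replicates 1, 2 and 3. Their counts were 49, 524 and 1633 and 18, 151 and 537. Retnlg, a secreted protein of neutrophils, had 1, 17 and 91 counts. Cxcr2, the receptor that draws neutrophils toward chemokines, had 4, 31 and 83 counts, and Csf3r, the receptor for G-CSF, had 41, 60 and 162. Replicate 1 was the lowest in each of these, although replicate 2 had 0.303 times its mouse counts. Genes of neutrophil precursors were near 0, with Elane at 0 in every library, Mpo at 0, 0 and 3 counts and Camp at 0, 0 and 8. The S100a9 to S100a8 ratio was 2.53, 3.23 and 2.83. Macrophage markers were 36.5, 0.504 and 1.05 times the neutrophil markers.

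Several genes were, like the neutrophil list, lowest in replicate 1. Interleukin 1 beta (Il1b), an inflammatory cytokine of myeloid cells, had 82.9, 1183 and 1106 TPM. Hdc, the histamine-making enzyme of mast cells and some neutrophils, had 5, 41 and 158 counts, while the mast cell genes Cpa3, Mcpt4, Tpsb2, Cma1 and Fcer1a had no count in any library and Kit had 11, 6 and 19. The chemokine Cxcl2, which attracts neutrophils, had 10.6, 136 and 265 TPM.

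**Figure D4:**
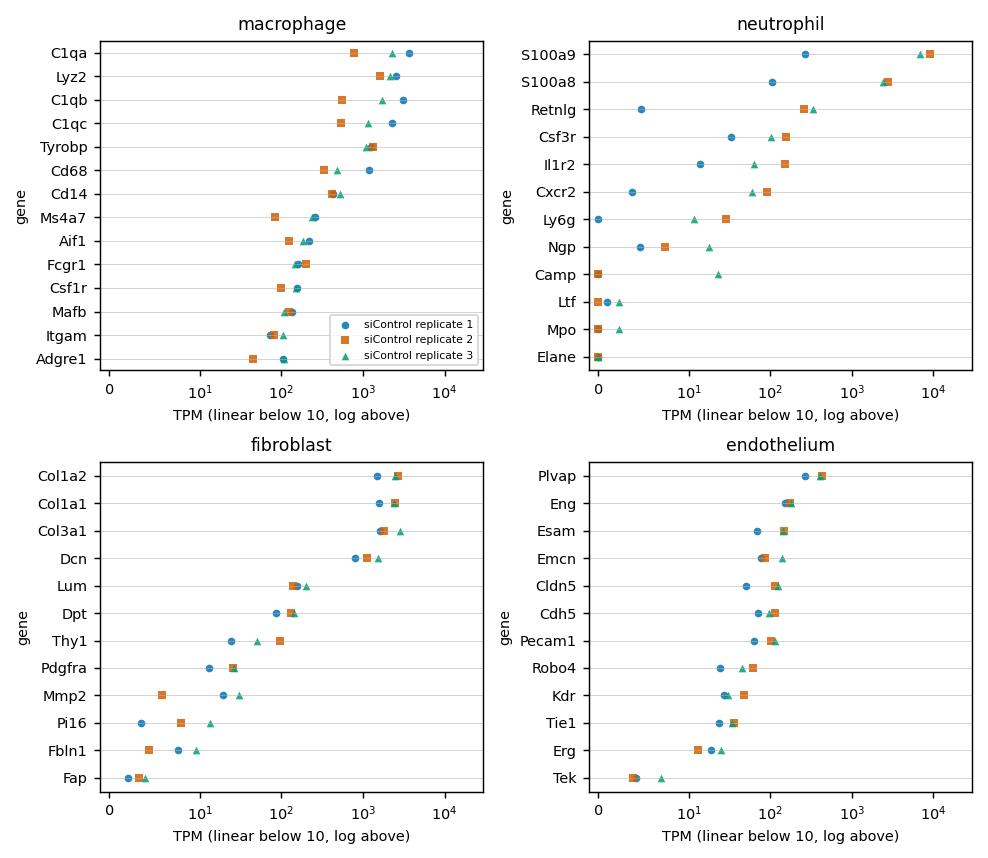
TPM (linear below 10, log scale above) of the markers of macrophages, neutrophils, fibroblasts and endothelium, with a point for each siControl library. C1qa was lowest in replicate 2, at 780 TPM against 3711 and 2248 TPM, and S100a9 and S100a8 were lowest in replicate 1; the median range of members with at least 10 counts was 1.67-fold for macrophage, 1.75-fold for endothelial and 1.79-fold for fibroblast genes.

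Red cell RNA was steady. Hbb-bs, a beta globin gene, had 3588, 2568 and 3183 TPM, and Hba-a1 and Hba-a2, near-identical alpha globin genes, had 1921, 1959 and 2198 TPM and 756, 781 and 827 TPM. Platelet genes were low, led by Pf4 with 60.2, 322 and 134 TPM, Ppbp with 36.3, 66.6 and 46.4 TPM and Gp9 with 10, 4 and 6 counts.

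Lymphocyte genes were low, and most were close to the limit of detection. No T cell marker reached a TPM of 10 with at least 3 counts in every library. Trac, the constant region of the T cell receptor alpha chain, had 2, 0 and 5 counts, Cd3g 1, 0 and 17, Lck 3, 1 and 15 and Cd3e 0, 0 and 2. The NK cell list was led by the granzyme Gzma with 4, 3 and 10 counts, Nkg7 with 1, 1 and 17 and Gzmb with 2, 2 and 14, and Klre1 had none. Of the B and plasma cell markers, Ighm had 56, 5 and 68 counts, Cd79b had 5, 1 and 9, Cd79a had 5, 1 and 6, and Mzb1, which overlaps other genes over 76.9% of its exon bases, had none. Dendritic cell genes were also sparse, led by Batf3 with 3, 3 and 7 counts, Siglech with 3, 1 and 12 and Zbtb46 with 4, 3 and 19.

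Other tissues left little trace. The bile duct genes Sox9 and Epcam had 22, 6 and 32 counts and 14, 1 and 11 counts, and Cftr had none. Mesothelial genes were led by Upk1b with 2, 2 and 8 counts, Upk3b with 14, 0 and 6 and Msln with 7, 0 and 5. Skeletal muscle genes were at most 1 count per library, in Tnnt3 and Acta1, and Myh4, Ckm, Mylpf and Myh1 had none. Of the nerve genes Mbp had 15, 2 and 22 counts, S100b 1, 0 and 1 and Sox10 none. In the adipocyte list Fabp4, a lipid carrier also made by endothelium and macrophages, had 495, 624 and 940.2 TPM, but Adipoq had 0, 0 and 1 counts, Lipe had 7, 1 and 20, Cidec had 3, 0 and 0, and Plin1 and Lep had none.

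Of the TGF-beta ligands Tgfb1, the main isoform of immune and stromal cells, had 160.2, 178 and 188 TPM, which was 5.21, 6.08 and 6.46 times Tgfb3. Tgfb2 had 13, 2 and 25 counts. The activin subunit Inhba had 51.9, 93.1 and 83.7 TPM, and Lrrc32, which tethers latent TGF-beta at the cell surface, had 49.1, 57.1 and 69.2 TPM. On the receptor side Tgfbr1 and Tgfbr2 had 35.0, 35.1 and 26.9 TPM and 37.7, 18.7 and 49.6 TPM. Fstl1, a secreted glycoprotein of the follistatin family, had 375, 628 and 566 TPM, and Ski, a repressor of SMAD transcription factors, had 34.6, 39.2 and 41.5 TPM. The BMP inhibitor Nog had no count. Of the ligand list 8 of 16 genes and of the receptor list 9 of 16 genes reached a TPM of 10 in every library.

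Signals for vessels and growth were of moderate level. Vegfa, the main growth factor of endothelium, had 67.0, 79.3 and 134 TPM, adrenomedullin (Adm) had 38.4, 117 and 83.2 TPM and the VEGF receptor Flt1 had 35.4, 93.7 and 60.1 TPM. Of the 26 genes of the VEGF, angiopoietin and Notch list, 14 reached a TPM of 10 in every library. Of 21 growth factors only 6 did, led by Csf1, which sustains macrophages, with 61.9, 118 and 73.5 TPM, Pdgfb with 31.5, 55.1 and 63.0 TPM and Pdgfa with 37.2, 61.3 and 42.3 TPM. Igf2 and Csf2 had no count, with 70.4% of the exon bases of Igf2 shared with other genes.

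Chemokines were widely detected, 16 of 28 at a TPM of at least 10 in every library, with sums of 2575, 3129 and 4273 TPM. Ccl2, which draws monocytes, had 269.5, 532 and 448 TPM, Cxcl14 had 387, 192 and 512 TPM and the monocyte chemokine Ccl12 had 361, 319 and 402 TPM. Ccl4 had 136, 205 and 251 TPM and Ccl3 had 9, 9 and 51 counts. Cxcl5 had 18, 7 and 55 counts and Cxcl3 had 1, 0 and 10 counts. The T cell zone chemokine Ccl19 and Ccl17 had no count. After Il1b, the cytokine list was led by the TNF receptor Tnfrsf1a with 189, 176 and 187 TPM and by Il1rn, which blocks the interleukin 1 receptor, with 75.8, 147 and 126 TPM. Tnf had 14, 4 and 24 counts and Il6 had 3, 0 and 9, whereas its signal chain Il6st had 31.5, 37.0 and 45.0 TPM.

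The summed level of interferon-stimulated genes was even over the libraries, with 8871, 8476 and 8989 TPM. Ifitm3, Ifi27l2a and Bst2 made up 70.0% of the sum, and 18 of 19 genes reached a TPM of 10 in each library. Ifitm3, which blocks viral entry, had 2449, 2791 and 2820 TPM, Ifi27l2a had 2658, 1985 and 1937 TPM and the virus tether Bst2 had 1394, 978 and 1436 TPM. Antigen presentation genes summed to 13080, 9597 and 12277 TPM. B2m, the light chain of MHC class I, had 6775, 4904 and 6202 TPM, the heavy chain H2-K1 had 2025, 1209 and 1975 TPM and the MHC class II chaperone Cd74 had 1347, 1050 and 1056 TPM. The median range of the 17 interferon genes with at least 10 counts was 1.35-fold, and that of the 11 antigen presentation genes was 1.38-fold. Over all genes with such counts it was 1.52-fold.

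Of 20 genes of hypoxia and glycolysis, 19 reached a TPM of 10 in every library. Glycolysis genes were high, led by Gapdh with 3493, 2122 and 2507 TPM, Aldoa with 1568, 1482 and 1696 TPM and Pkm with 1441, 1408 and 1785 TPM. Among targets of the hypoxia response, Bnip3, a mitophagy receptor, had 120, 48.6 and 107 TPM and the prolyl hydroxylase Egln3 had 55.9, 30.5 and 79.5 TPM. Car9, a carbonic anhydrase, was the remaining member, with 3, 2 and 1 counts. Proliferation genes were detected but low, with Pcna at 90.7, 35.6 and 90.6 TPM, Top2a at 29.1, 29.3 and 55.2 TPM, Ccnb2 at 20.2, 35.3 and 42.8 TPM and Mki67 at 16.5, 14.3 and 33.4 TPM. Of the stress genes, the metal-binding Mt1 had 1213, 1258 and 1093 TPM, the chaperone Hsp90aa1 had 295, 416 and 431 TPM and Junb had 241, 304 and 379 TPM. The dual-specificity phosphatase Dusp1 and the RNA-decay factor Zfp36, both immediate early genes, had 39.1, 152 and 122 TPM and 55.1, 169 and 148 TPM, lowest in replicate 1.

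The cytoskeleton list summed to 18868, 23693 and 23273 TPM. Of its 21 genes with at least 10 counts, 16 were lowest in replicate 1, against 43.6% of all such genes. Actb had 5577, 7776 and 7027 TPM, Tmsb4x, which binds actin monomers, had 4655, 4528 and 5697 TPM and vimentin (Vim), the intermediate filament of mesenchymal cells, had 1582, 1718 and 1626 TPM. Of the genes linked to epithelial to mesenchymal transition, Emp3 had 287, 337 and 219 TPM, Snai1 had 36.4, 44.5 and 44.4 TPM and Zeb2 had 20.4, 33.1 and 28.0 TPM. Pcdh1 had 10.6, 8.53 and 15.7 TPM and Ocln, an epithelial junction protein, had 4, 0 and 4 counts. Integrins were led by Itgb1, the most widely shared beta chain, with 292, 272 and 326 TPM, Itgb5 with 191, 130.2 and 188 TPM and the leukocyte chain Itgb2 with 140.0, 146 and 149.9 TPM.

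Long non-coding RNAs held 0.697%, 1.16% and 1.06% of TPM. The nuclear RNA Malat1 had the highest mean, with 462, 2198 and 1662 TPM, although it was below Bc1 and Gm10076 in replicate 1. It was followed by Bc1 with 536, 469 and 542 TPM and by Gm10076, AW112010 and Gm56730 with means of 416, 203 and 161 TPM. Mir100hg, the host of miR-100, had 7, 9 and 20 counts.

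RNA of mitochondria and ribosomes differed between the libraries, and replicate 2, the shallowest, held the most. Transcripts of mitochondrial protein-coding genes took 5.61%, 11.4% and 8.13% of TPM and mitochondrial ribosomal RNA 0.828%, 4.37% and 2.52%. Nuclear ribosomal RNA, almost all from Rn18s-rs5, took 0.974%, 4.16% and 0.727%. Lars2, a mitochondrial tRNA synthetase, had 1270, 8053 and 1214 TPM. Other nuclear protein-coding genes accordingly held 78.1%, 62.4% and 70.9%. Genes of the ribosomal proteins took 11.3%, 12.5% and 13.7%.

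Replicate 2 had 0.303 times the mouse counts but 0.758 times the human counts of replicate 1. Among 2213 genes with a mean of at least 50 counts and at least 10 in each library, 69 (3.12%) had a count ratio of at least the human ratio between these libraries. They included Rn18s-rs5, both mitochondrial ribosomal RNAs, Lars2, Malat1, S100a8, S100a9 and Il1b. Whether human reads were counted on mouse genes was not tested, and for Rn18s-rs5, whose product is nearly the same in both species, the species of the reads cannot be told apart here.

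Over the same 2213 genes the coefficient of variation of TPM had a median of 0.206, against 0.129 from counting error alone, and 76.5% of genes lay above their counting value. It was below 0.2 for 48.4% and above 0.5 for 155 genes. edgeR's common biological coefficient of variation, the spread between libraries beyond counting, was 0.287 over 11393 genes, and 0.184 without replicate 1. Serpina3k, a serine protease inhibitor of hepatocytes, had the largest value, 1.14, with 702, 65.7 and 144 TPM. Among the other 9 genes with the largest values, Ttr, Bhmt, Cyp2d9, Gstm1, C8a and Tkfc, genes of liver metabolism, secretion or complement, were also highest in replicate 1, and Lars2 and Rn18s-rs5 were highest in replicate 2. The smallest values belonged to the glycolytic enzyme Eno1 (686, 690.1 and 691 TPM), the GTPase Cdc42, the ubiquitin ligase Rnf213, the ribosomal protein gene Rpl21 and the protease Sppl2a. They lay below the counting error and are the lower end of many genes.

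Of 2290 genes with a mean of at least 50 counts, 96 (4.19%) differed by more than 4-fold between the highest and the lowest library. Replicate 1 was the highest for 70 of them and the lowest for 19, and replicate 2 was the lowest for 64. Of genes with a mean of at least 50 counts in the libraries kept, 10 exceeded 4-fold without replicate 1 and 47 without replicate 2. The wide ranges were thus found mainly in comparisons with replicate 1, the library with the most hepatocyte RNA and the least neutrophil RNA.

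**Figure D5:**
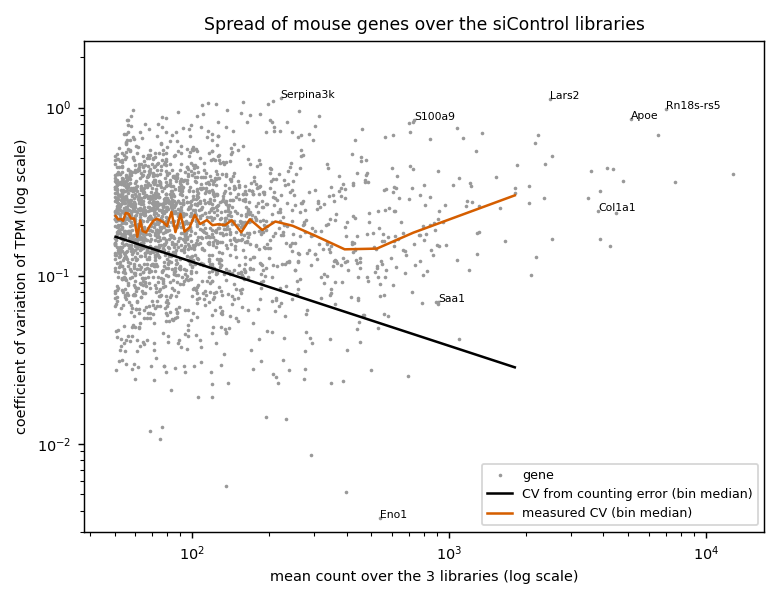
Coefficient of variation of TPM over the 3 siControl libraries against mean count, both on log scales, for 2213 mouse genes; lines are medians of the measured value and of the value from counting error in bins of mean count. The measured median was 0.206 against 0.129 from counting, with Serpina3k, Lars2, Rn18s-rs5, Apoe and S100a9 among the most spread and Saa1 at 0.0693.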

How the data were processed

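RNA of liver tissue was sequenced by the authors from SMART-Seq libraries on paired 150-base reads, trimmed with Cutadapt and aligned with STAR 2.7.11a to a joined human and mouse genome (GRCm39). They discarded multi-mapped reads and those that fitted both genomes. The deposited values are raw counts per gene from featureCounts, without normalization or filter, with gene lengths. The use of strand is not given in the sources used here.

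Names and types came from a gencode 39 annotation, which held 56323 of 56884 identifiers. TPM was computed from counts and lengths in the 3 siControl libraries. Since these form a single group, no comparison was tested and no p-value is given. A chi-square of counts per pair of libraries checked for a library deposited more than once. Lists gave summed TPM, mean and SD. The common dispersion was estimated with edgeR 4.0.16 (R 4.3.3, TMM, total of at least 10 counts). Scripts were tested on simulated data. Python 3.11.15 was used.

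The genes and 49 lists were chosen with earlier results of these data known, and 3 lists (acute-phase proteins, hepatocyte metabolism, major urinary proteins) were added after levels were seen. Genes named by rule are the 30 highest protein-coding genes, the 3 highest of each list and members at 0, the 10 most and 5 least variable genes, the 5 highest lncRNAs, Col1a1, Col3a1, Esm1 and genes the paper names that a list holds. Other genes of the lists were named after their values had been seen. Some genes are not reported here. The precision is that of 213022 to 913584 counts per library. Alternatives were other scales, filters, depths and left-out replicates. Libraries of the siAATF group were not used here.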

Additional observations from a re-analysis of the deposited data

How the results depend on the processing

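No paired analysis was possible because there was 1 group and no test. The summed levels of macrophage and hepatocyte markers moved by less than 1 SD over replicates under every alternative, but the order of the lists turned. These SDs were wide, 4679 and 10999 TPM. Leaving out 1 of 3 replicates cannot move a mean by 1 SD, so those settings could not fail. With CPM, which does not divide by length, 518 genes in place of 190 held 50% of the total, collagen took 2.49% in place of 0.836%, and fibroblast and endothelium markers summed to 20164 and 1715 in place of 8016 and 1169. Hepatocyte and macrophage markers were then at 18326 and 6923 in place of 21906 and 10775, so that fibroblast markers stood above both. Without replicate 1, neutrophil markers stood level with tumor macrophage markers and above fibroblast and macrophage markers. The 50% was held by 119 genes when genes under 10 counts in any library were left out, and by 299 genes without ribosomal RNA, mitochondrial-genome genes and Lars2, a scale chosen after seeing the data. Genes detected in all libraries rose from 3833 to 8370 at a minimum of 3 counts and to 11487 at 1 count. Leaving out each replicate gave 3835 to 8266 genes, with the highest without replicate 2. Genes with over 4-fold range fell from 96 to 26 after thinning to the smallest total, to 22 at a mean of 200 counts, and to 10 to 78 with a replicate left out, lowest without replicate 1. The minimum mean count was applied anew in each of these settings, so the number of genes that could pass differed. A library left out also leaves fewer values for a range. The biological coefficient of variation was 0.184 to 0.350 with a replicate left out. Other leave-one-out ranges were 172 to 217 genes for 50% of TPM, 0.756% to 0.949% for collagen, 7138 to 9141 TPM for fibroblast, 1083 to 1333 for endothelium, 8339 to 13005 for macrophage and 15561 to 25302 for hepatocyte markers. The cause was not tested. Depth limits replicate 2 most, where 3884 genes had at least 10 counts against 8689 and 9606 in the others.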

Other observations

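Genes of the mitochondrial genome were unevenly covered in the siControl libraries. mt-Co1, a subunit of cytochrome oxidase, had 9416, 7016 and 22050 counts in replicates 1, 2 and 3, and mt-Cytb had 4292, 2721 and 7324, whereas the cytochrome oxidase subunits mt-Co2 and mt-Co3 had 10, 13 and 41 and 9, 14 and 27 counts. mt-Atp6 had 16, 14 and 28 counts. Reads that mapped to several places had been removed by the authors, and the part of this step in the low counts was not tested. The mitochondrial share of TPM therefore rests on some of the 13 protein-coding genes.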
